A study of Mus musculus with 6 samples.

Results

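A set of 8 genes that write, copy or remove DNA methylation was followed through Eμ-Myc lymphoma development in mouse pre-B cells. They were taken by symbol, with the GENCODE vM1 annotation, from the 37991 gene identifiers of the deposited counts, and all 8 were found and tested. They are Dnmt1 and Uhrf1, which copy methylation after replication, Dnmt3a and Dnmt3b, which place it on new sites, Tet1, Tet2 and Tet3, which oxidise it, and Tdg, which cuts the oxidised bases out.

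Polyadenylated RNA was sequenced from B220-high, IgM-low, IgD-low cells that had been sorted from bone marrow. There were 3 stages with 2 biological replicates each, which gave 6 libraries. The wild type mice were C57BL/6 littermates of 4 to 6 weeks of age, the premalignant mice were Eμ-Myc/+ of the same age without disease, and the malignant mice were Eμ-Myc/+ animals of 10 to 20 weeks with spontaneous lymphoma. The transgene, kept heterozygous on the C57BL/6 background, drives Myc from the immunoglobulin heavy chain enhancer in B-lineage cells. The methods give the malignant cells as B220+, IgM- and IgD-, and state that wild type and premalignant donors were female while malignant donors were of both sexes, so age and sort cannot be told apart from malignancy. Each lymphoma is its own transformed clone, and the study took single animals as replicates of such sorted cells.

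In mammalian cells the methyl group sits on the cytosine of CG pairs. UHRF1 binds the half-methylated CG pairs left by replication and brings in DNMT1, so that the pattern is copied to the daughter strand, while DNMT3A and DNMT3B set methylation on unmethylated DNA. The TET proteins turn 5-methylcytosine into 5-hydroxymethylcytosine and further oxidised bases, and TDG excises the last of these for replacement by base excision repair. Loss-of-function mutations of DNMT3A and TET2 are well known in blood cancers, and Tet2 and Tet3 are both used in normal B-cell development.

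Positions of the genes are given on NCBIM37 (mm9), the build of the annotation used here. Dnmt1 is at chr9:20711650-20757317, Uhrf1 at chr17:56442744-56462909, Dnmt3a at chr12:3806007-3914443 and Dnmt3b at chr2:153475186-153513466. Tet1 is at chr10:62267318-62361866, Tet2 at chr3:133126643-133207354, Tet3 at chr6:83312367-83391672 and Tdg at chr10:82092573-82113544. All are protein coding.

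Stretches of their start regions are shown first, for Dnmt1 and Uhrf1, which copy methylation at replication, for Tdg, and for Tet1, which had the largest differences from malignant cells. E2F factors bind such motifs at genes of DNA replication, and the E-box CACGTG is the core motif bound by Myc with Max. Windows of 300 bases, from 250 before to 50 after each RefSeq start in GRCm38.p6, were searched on both strands for TTTCGCGC or TTTGGCGC, called E2F-type here, and for CACGTG. The 8 genes have 13 such windows. In the lines that follow, capitals mark a motif. The Dnmt1 lines are 30-base pieces around its motifs, at chr9:20952824-20952853 and chr9:20952574-20952603 on the minus strand, and the first of them lies in the annotated first exon of a Dnmt1 transcript in GENCODE vM1. The other lines are the 250 bases before a RefSeq start. For Uhrf1 this is the second of its starts (chr17:56304063-56304312, plus strand). For Tdg the line is chr10:82629588-82629837 (plus strand) and for Tet1 chr10:62887325-62887574 (minus strand). On NCBIM37 the Tet1 line lies at chr10:62350073-62350322, inside the gene as annotated there. It does not reach the upstream end of the annotated gene and holds no annotated exon bases.
Dnmt1 first motif: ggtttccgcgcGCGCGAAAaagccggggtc
Dnmt1 second motif: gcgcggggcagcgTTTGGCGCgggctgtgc
Uhrf1: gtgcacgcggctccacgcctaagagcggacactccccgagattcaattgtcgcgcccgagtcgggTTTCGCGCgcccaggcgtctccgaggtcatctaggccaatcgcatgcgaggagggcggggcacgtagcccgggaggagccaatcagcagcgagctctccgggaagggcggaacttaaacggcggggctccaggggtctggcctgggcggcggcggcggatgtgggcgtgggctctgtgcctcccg
Tdg: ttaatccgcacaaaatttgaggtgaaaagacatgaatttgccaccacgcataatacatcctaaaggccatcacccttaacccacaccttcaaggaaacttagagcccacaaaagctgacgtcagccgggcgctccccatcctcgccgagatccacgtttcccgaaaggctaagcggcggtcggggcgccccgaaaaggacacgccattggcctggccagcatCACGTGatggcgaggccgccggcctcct
Tet1: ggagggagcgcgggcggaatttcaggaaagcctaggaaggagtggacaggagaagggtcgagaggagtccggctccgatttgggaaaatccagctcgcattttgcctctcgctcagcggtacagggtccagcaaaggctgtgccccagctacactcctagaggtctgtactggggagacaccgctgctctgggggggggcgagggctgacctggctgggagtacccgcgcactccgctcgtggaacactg

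An E2F-type motif was present in 2 of the 8 members and in 0.929% of all 27025 genes with a window (0.813% of 32851 windows). It began 219 bases before the third annotated start of Dnmt1 and again at base 34 after it, and 185 bases before the second start of Uhrf1. The E-box was present in 2 of the 8 members and in 8.09% of all these genes (7.15% of the windows), and in the members it lay 28 bases before the start of Tdg and 80 bases before the third start of Dnmt3a. The Tet1 window, which lies inside the gene as annotated in GENCODE vM1, held neither, and the upstream end of that annotation was not searched. The windows of the members held between 2 and 57 CG pairs, and the median over all windows was 7. A match of letters is a description of the sequence, and binding was not measured here.

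Counts on genes totalled between 30031100 and 53453055 per library, and in each stage replicate 1 was the deeper library. Levels are given as CPM, which are counts over the library size, with library sizes scaled by TMM, and 3 counts, taken as the floor, corresponded to between 0.0526 and 0.108 CPM. Myc, the transgene's product, had levels of 33.8 and 41.4 CPM in wild type, 1164 and 1155 CPM in premalignant and 1732 and 1578 CPM in malignant libraries and so was higher in every Eμ-Myc library. Marker genes of the B lineage were present in all libraries, and the sum of 10 such markers was 6787 and 7642 CPM in wild type, 3426 and 3404 CPM in premalignant and 3186 and 2854 CPM in malignant libraries. The surrogate light chain gene Igll1, which marks pro-B and early pre-B cells, was at 197 and 195 CPM in wild type, 18.8 and 9.58 CPM in premalignant, and 0.167 and 7.56 CPM in malignant libraries. The sum of 8 myeloid markers was 779 and 1708 CPM in wild type, 233 and 249 CPM in premalignant and 55.5 and 113 CPM in malignant libraries. The sum of 6 erythroid markers was 294 and 1084, 60.3 and 138, and 52.5 and 58.1 CPM in the same order, and no marker of either list was at 0 in both libraries of a stage. Against wild type, all 8 myeloid markers, 5 of the 6 erythroid markers and 9 of the 10 B-lineage markers were called lower in premalignant and again in malignant cells. The sums of 6 T-cell markers lay between 13.1 and 119 CPM, those of 4 mature B-cell markers between 244 and 460 CPM, those of 4 plasma-cell markers between 324 and 853 CPM and those of 4 megakaryocyte markers, of which Pf4 was at 0 in both malignant libraries, between 0.690 and 4.67 CPM. Malignant replicate 1 had 126 CPM of the Y-linked Ddx3y and 1.72 CPM of Xist, and the other 5 libraries had at most 0.113 CPM of Ddx3y and at least 1908 CPM of Xist. The part of these cells, and of the loss of early pre-B markers, in the values of the methylation genes was not tested. In bulk RNA, fewer cells of a type and less RNA per cell cannot be told apart.

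A gene was called where edgeR's quasi-likelihood test across all 16683 genes tested gave a Benjamini-Hochberg adjusted p (FDR) up to 0.1 and the log2 fold change was 0.5 or more in size. In premalignant vs. wild type cells 5 of the 8 genes were called, 4 of them higher (Dnmt1, Uhrf1, Dnmt3b and Tdg) and 1 lower (Tet2). Of all genes tested, 39.3% were called in this comparison, 19% higher and 20.3% lower. In malignant vs. wild type cells 4 were called, with Dnmt1, Dnmt3b and Tdg higher and Tet1 lower, beside 49.2% of all genes, 24.9% higher and 24.3% lower. In malignant vs. premalignant cells Tet1 was called lower and the other members were not called, beside 6.18% of all genes, which divide into 3.73% called higher and 2.45% called lower. The first and second comparisons share the wild type libraries, and the third shares its libraries with both. The median log2 fold change of the 8 genes was 0.46, 0.16 and -0.15 in these comparisons, and that of all genes tested was -0.081, -0.019 and 0.043. The share of members called was 62.5%, 50% and 12.5% in the 3 comparisons, so that in malignant vs. wild type cells it was near that of all genes. The libraries of the stages did not overlap for 8, 4 and 4 of the members, and for 77.4%, 71.7% and 51.1% of all genes tested.

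**Figure D1:**
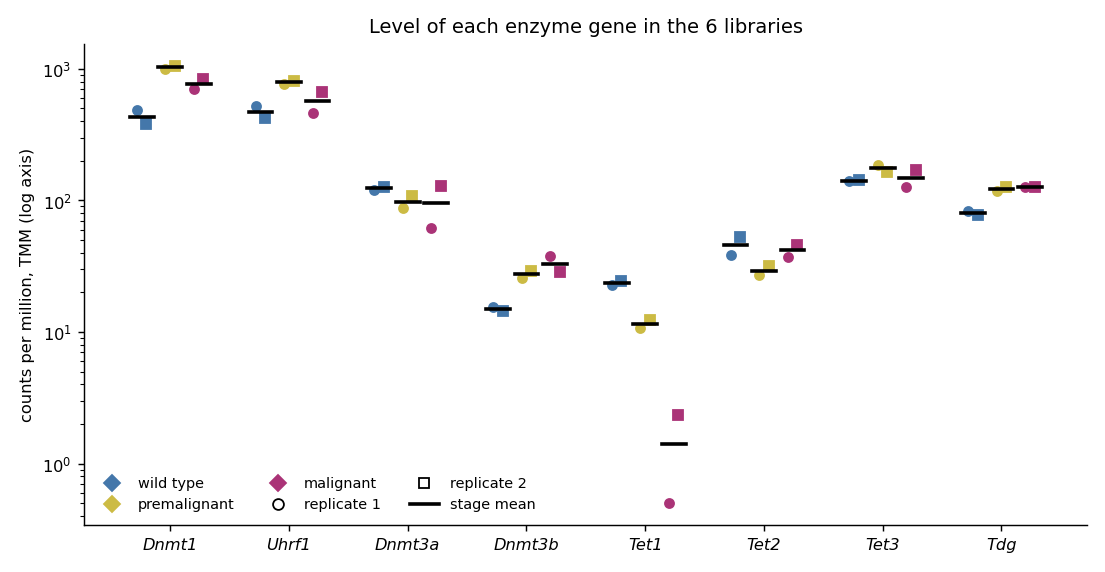
Level of the 8 genes in each of the 6 libraries, in CPM on TMM-scaled library sizes, on a log axis. Circles and squares are replicates 1 and 2, colours are the stages and black bars the stage means of 2 libraries. Every Eμ-Myc library lies above both wild type libraries for Dnmt1, Dnmt3b and Tdg, and Tet1 falls from 22.7 and 24.4 in wild type to 0.502 and 2.33 in malignant libraries.

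Dnmt1, the enzyme that copies methylation at the replication fork, was higher in both Eμ-Myc stages. It was at 485 and 382 CPM in wild type, at 995 and 1054 CPM in premalignant and at 708 and 831 CPM in malignant libraries. Every Eμ-Myc library was above both wild type libraries, and the malignant libraries lay between the other stages. The level in premalignant cells was 2.36-fold that in wild type (log2 fold change 1.24, SE 0.18, edgeR FDR 0.00568), and 1423 of the 16683 genes tested had a larger rise. The differences between same-numbered libraries were 1.04 in replicate 1 and 1.47 in replicate 2 on the log2 scale. Here and for the other genes such libraries share only a number, so these are not matched differences. In malignant cells the rise over wild type was 1.78-fold (log2 fold change 0.83, SE 0.18, edgeR FDR 0.0123), with 0.55 in replicate 1 and 1.12 in replicate 2. The malignant level was not called against the premalignant one (log2 fold change -0.41, SE 0.18, edgeR FDR 0.266), although both malignant libraries were below both premalignant ones. This last difference was called without malignant replicate 2, at -0.57.

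Uhrf1, which guides DNMT1 to half-methylated CG pairs, rose in premalignant cells. Its levels were 524 and 424 CPM in wild type, 769 and 812 CPM in premalignant, and 463 and 667 CPM in malignant libraries. Both premalignant libraries were above all others, while the malignant libraries overlapped the wild type range. The rise in premalignant cells was 1.67-fold (log2 fold change 0.74, SE 0.22, edgeR FDR 0.0452), with 0.55 in replicate 1 and 0.94 in replicate 2. This call was lost without wild type replicate 2 (log2 fold change 0.60), without premalignant replicate 1 (0.79) and without premalignant replicate 2 (0.71). In malignant vs. wild type cells the log2 fold change was 0.25 (SE 0.22, edgeR FDR 0.384), and in malignant vs. premalignant cells it was -0.48 (SE 0.22, edgeR FDR 0.282). The value against wild type came to 0.50, called, without malignant replicate 1 and to -0.0080 without malignant replicate 2, and the value against premalignant cells came to -0.81, called, without malignant replicate 2.

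The maintenance genes did not keep a fixed proportion. Per exon length, as RPKM on total counts, Uhrf1 stood at 1.33 and 1.37 times Dnmt1 in the wild type libraries, at 0.956 and 0.952 times in the premalignant libraries and at 0.808 and 0.992 times in the malignant libraries. The ratio was higher in both wild type libraries than in any of the other 4, and this was not tested. Between any 2 stages, with 2 libraries against 2, an exact permutation test cannot give a 2-sided p below 0.333. With the longest coding transcript as the length, Uhrf1 was above Dnmt1 in every stage, at a mean of 148 against 92.4 RPKM in wild type, 214 against 189 RPKM in premalignant and 145 against 134 RPKM in malignant cells.

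Dnmt3b, a de novo methyltransferase, rose from a low level. It was at 15.5 and 14.4 CPM in wild type, at 25.8 and 29.3 CPM in premalignant and at 37.5 and 28.8 CPM in malignant libraries. Every Eμ-Myc library lay above the wild type libraries, and the 2 Eμ-Myc stages overlapped. The level rose 1.84-fold in premalignant cells (log2 fold change 0.88, SE 0.19, edgeR FDR 0.0197) and 2.22-fold in malignant cells (log2 fold change 1.15, SE 0.20, edgeR FDR 0.00562). In replicates 1 and 2 the differences were 0.74 and 1.02 for premalignant, and 1.28 and 1.00 for malignant cells, all against wild type. The malignant and premalignant levels were not called apart (log2 fold change 0.27, SE 0.19, edgeR FDR 0.503). The premalignant call was lost without wild type replicate 2 (0.83), without premalignant replicate 1 (0.97) and without premalignant replicate 2 (0.79), and the malignant call was kept without any library.

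Dnmt3a, the other de novo methyltransferase, was not called in any comparison. Its levels were 120 and 127 CPM in wild type, 88.1 and 108 CPM in premalignant, and 62.1 and 128 CPM in malignant libraries. The premalignant libraries lay below the wild type ones, and the malignant libraries stood at both ends of the range of all 6. The log2 fold change was -0.33 in premalignant vs. wild type (SE 0.33, edgeR FDR 0.469), -0.38 in malignant vs. wild type (SE 0.33, edgeR FDR 0.392) and -0.045 in malignant vs. premalignant cells (SE 0.33, edgeR FDR 0.966). The malignant values turned on the library: against wild type they were -0.97, called, without malignant replicate 2 and 0.061 without malignant replicate 1, and against premalignant cells -0.69, called, and 0.38. The malignant libraries were therefore too far apart for a common malignant level of Dnmt3a.

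The balance of the methyltransferase genes therefore differed by stage and library. As a share of the summed RPKM of the 3 Dnmt genes, Dnmt1 made up 90.0% and 87.4% in wild type, 94.8% and 94.3% in premalignant and 92.4% and 92.2% in malignant libraries. Dnmt3a made up 7.03% and 9.21%, 2.66% and 3.05%, and 2.56% and 4.49% in the same order. Dnmt3b made up 2.96% and 3.41%, 2.54% and 2.70%, and 5.05% and 3.30%. Dnmt1 was thus the main methyltransferase transcript in every library, and its share was larger in all Eμ-Myc libraries than in wild type. Dnmt3b stood at 0.421 and 0.370 times Dnmt3a in wild type, at 0.955 and 0.884 times in premalignant, and at 1.97 and 0.734 times in malignant libraries. The exons of Dnmt3a sum to 16642 bases over all transcripts and to 9685 in the longest coding one, and with the latter its share was 11.4% and 14.8% in wild type, 4.46% and 5.11% in premalignant and 4.29% and 7.44% in malignant libraries.

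**Figure D2:**
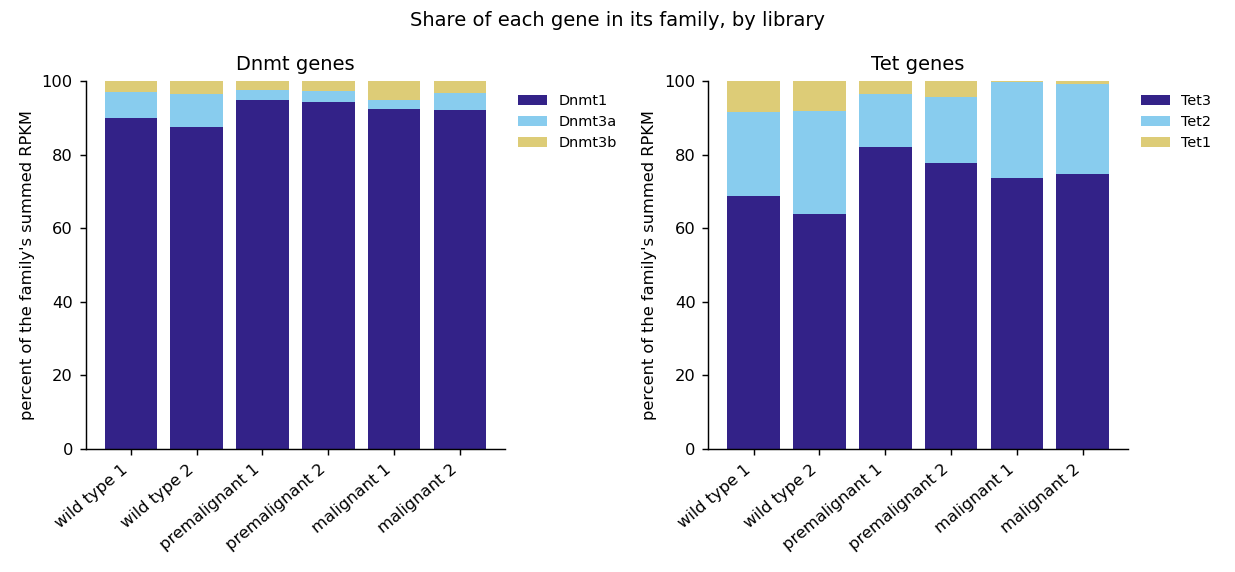
Share of each gene in the summed RPKM of its family, in percent, for the Dnmt genes (left) and the Tet genes (right) in each of the 6 libraries. Dnmt1 makes up between 87.4% and 94.8% of its family, and Tet1 shrinks from 8.43% and 8.14% in wild type to 0.221% and 0.776% in malignant libraries.

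Tet1 showed the largest differences of the 8 genes in both comparisons with malignant cells. It was at 22.7 and 24.4 CPM in wild type (1296 and 860 counts), at 10.7 and 12.4 CPM in premalignant (562 and 410 counts) and at 0.502 and 2.33 CPM in malignant libraries (24 and 65 counts). The stages did not overlap, and both malignant libraries remained above the floor of 3 counts. Exact Poisson 95% intervals, which cover counting error only, ran from 0.322 to 0.747 CPM in malignant replicate 1 and from 1.80 to 2.97 CPM in malignant replicate 2, so the malignant libraries differed by more than counting error. Tet1 in malignant cells was 17.1-fold lower than in wild type (log2 fold change -4.10, SE 0.68, edgeR FDR 0.00515), and 748 of 16683 genes had a lower log2 fold change. It was 8.37-fold lower than in premalignant cells (log2 fold change -3.07, SE 0.65, edgeR FDR 0.0721), where 296 genes had a lower value. Between same-numbered libraries, for replicates 1 and 2, the differences were -5.50 and -3.39 against wild type and -4.41 and -2.41 against premalignant cells.

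The call of Tet1 in malignant vs. wild type cells was kept without each library in turn. The call in malignant vs. premalignant cells was lost when only these stages entered the fit (log2 fold change -3.05), without wild type replicate 1 (-3.05) or 2 (-3.05) and without premalignant replicate 1 (-3.15) or 2 (-2.95). In premalignant vs. wild type cells the level was 2.04-fold lower and not called (log2 fold change -1.03, SE 0.59, edgeR FDR 0.227), with -1.08 in replicate 1 and -0.98 in replicate 2. That difference was called without malignant replicate 1 (-1.02), without malignant replicate 2 (-0.97), with only these stages in the fit (-0.97) and without a filter on low counts (-1.02). The summed B-lineage, myeloid, erythroid, plasma-cell and megakaryocyte markers and Igll1 had their stage means in the same order as Tet1. Those of the T-cell and mature B-cell markers did not. The plasma-cell sum was 853 and 745 CPM in wild type, 386 and 376 CPM in premalignant and 328 and 324 CPM in malignant libraries. The part of the cells with these markers in the Tet1 values was not tested. Malignant replicate 1, with 0.502 CPM of Tet1, had high Ddx3y and nearly no Xist. Malignant replicate 2, with 2.33 CPM of Tet1, had high Xist and nearly no Ddx3y, like the wild type and premalignant libraries. The part of donor sex in the Tet1 values was not tested, and between the malignant libraries sex and animal cannot be told apart.

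Tet2, whose product acts without a DNA-binding CXXC domain of its own, fell in premalignant cells. Its levels were 38.6 and 52.5 CPM in wild type, 27.0 and 31.6 CPM in premalignant, and 37.4 and 46.1 CPM in malignant libraries. The premalignant libraries were the lowest of the 6, and the malignant ones lay near the wild type range. The premalignant level was 1.55-fold lower than wild type (log2 fold change -0.64, SE 0.21, edgeR FDR 0.0659), with -0.52 in replicate 1 and -0.73 in replicate 2. The call was lost at an FDR of 0.05 and without wild type replicate 2 (-0.39), premalignant replicate 1 (-0.52) or premalignant replicate 2 (-0.75). Malignant vs. wild type cells gave -0.13 (SE 0.21, edgeR FDR 0.671), a sign that turned to 0.11 without wild type replicate 2 and to 0.028 without malignant replicate 1. Malignant vs. premalignant cells gave 0.51 (SE 0.21, edgeR FDR 0.255), not called, with both malignant libraries above both premalignant ones.

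Tet3 was the most abundant Tet transcript per length in every library and was not called in any comparison. Its levels were 139 and 144 CPM in wild type, 187 and 164 CPM in premalignant, and 126 and 169 CPM in malignant libraries. Only the premalignant libraries lay apart from wild type, and the malignant libraries spanned the wild type values. The log2 fold change was 0.31 in premalignant vs. wild type (SE 0.17, edgeR FDR 0.217), 0.060 in malignant vs. wild type (SE 0.17, edgeR FDR 0.811) and -0.25 in malignant vs. premalignant cells (SE 0.17, edgeR FDR 0.490). The last value was called, at -0.51, without malignant replicate 2, and the one before it turned to -0.14 without that library, to -0.11 with upper-quartile normalization and to -0.029 with at least 10 counts required in every library.

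Within the Tet family the share of Tet1 was smaller at each later stage. It made up 8.43% and 8.14% of the summed Tet RPKM in wild type, 3.55% and 4.39% in premalignant and 0.221% and 0.776% in malignant libraries. Tet2 made up 22.9% and 28.1%, 14.3% and 18.0%, and 26.3% and 24.5%, and Tet3 made up 68.7% and 63.8%, 82.2% and 77.6%, and 73.5% and 74.7%. Tet3 thus had its largest share in premalignant libraries, where Tet2 had its smallest. The summed Tet RPKM was 20.5 and 22.9 in wild type, 20.2 and 18.4 in premalignant and 14.0 and 18.96 in malignant libraries, so the sums of the malignant libraries differed from each other by more than those of wild type.

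Tdg, the glycosylase that removes the oxidised bases, was higher in both Eμ-Myc stages. It was at 83.0 and 77.6 CPM in wild type, at 117 and 127 CPM in premalignant and at 127 and 127 CPM in malignant libraries. The 4 Eμ-Myc libraries lay close together and above wild type. The rise was 1.52-fold in premalignant cells (log2 fold change 0.60, SE 0.12, edgeR FDR 0.0157) and 1.58-fold in malignant cells (log2 fold change 0.66, SE 0.12, edgeR FDR 0.00782). In replicates 1 and 2 these were 0.50 and 0.71, and 0.61 and 0.71. The premalignant call was lost without premalignant replicate 1 (0.67) or 2 (0.56), and the malignant call was lost with upper-quartile normalization, where 0.49 was under the fold limit. Malignant and premalignant levels were not called apart (log2 fold change 0.056, SE 0.12, edgeR FDR 0.858), and the sign of this value turned to -0.025 with upper-quartile normalization. Of the 50-base stretches in the exons of Tdg, 50.8% occur once in the genome, so its counts depend on how reads from its copies were handled, and the same share was 76.9% for Uhrf1, 91.5% for Dnmt3b and at least 99.2% for the other members.

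**Figure D3:**
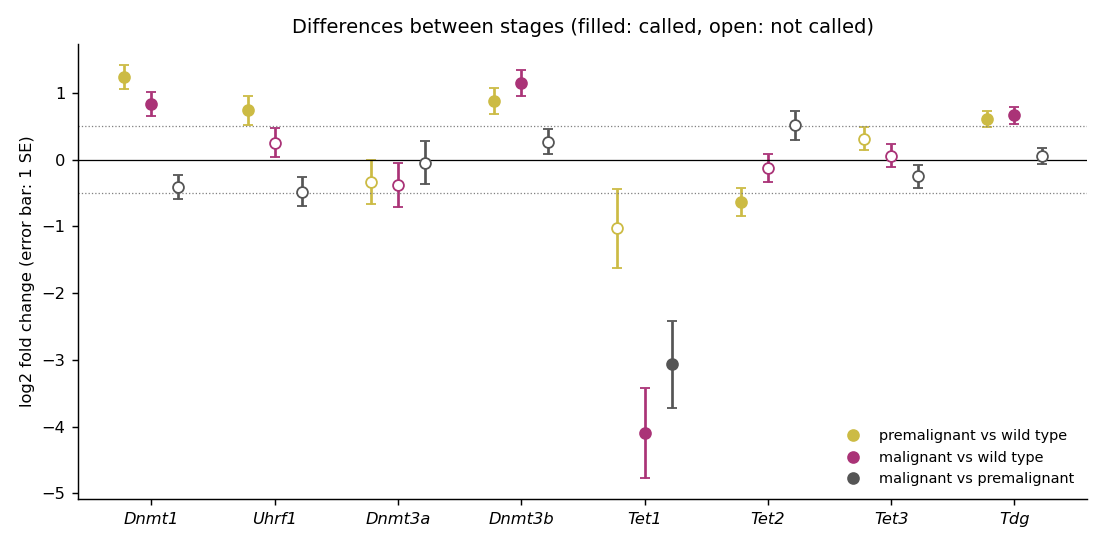
Log2 fold change of each gene in the 3 comparisons, with 1 SE as the error bar, from 1 edgeR fit of all 6 libraries. Filled points are called and open points are not, dotted lines mark the fold limit of 0.5, and Tet1 stands apart at -4.10 and -3.07 in the comparisons with malignant cells.

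To order the 8 genes by level, RPKM, which takes account of length, was used. In wild type cells the order was Uhrf1 (mean 125), Dnmt1 (92.4), Tdg (16.8), Tet3 (14.3), Dnmt3a (8.34), Tet2 (5.56), Dnmt3b (3.29) and Tet1 (1.80), and no neighbours in this order overlapped. In premalignant cells Dnmt1 (189) passed Uhrf1 (180) and Dnmt3b (5.24) passed Tet2 (3.09), and Dnmt3b and Dnmt3a (5.71) overlapped. In malignant cells Dnmt1 (134) and Uhrf1 (122) overlapped, as did Dnmt3b (5.94) with Dnmt3a (5.26) and Dnmt3a with Tet2 (4.16), while Tet1 (0.089) stayed last. The maintenance genes therefore stood above the other members in each stage. With the longest coding transcript as the length, Uhrf1 led in premalignant and malignant cells too, and the mean of Dnmt3a was 14.3 RPKM in wild type, 9.82 RPKM in premalignant and 9.03 RPKM in malignant cells, while that of Tdg was 25.7, 33.8 and 33.2 RPKM.

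Since Dnmt1 and Uhrf1 act with replication, the 8 genes were also set against 13 replication and cycling genes of the same libraries. The mean log2 CPM of these 13 genes was 0.91 above wild type in premalignant and 0.75 above it in malignant cells. In premalignant vs. wild type cells the median log2 fold change of the 13 was 0.98, against -0.081 for all genes. Beside 19% of all genes called higher, 10 of the 13 were called higher and none lower. The count was 6 without wild type replicate 2, 5 without premalignant replicate 1 and 3 without premalignant replicate 2. In malignant vs. wild type cells 9 were called higher and none lower, beside 24.9% of all genes called higher. The median was 0.84, against -0.019 for all genes. Mcm6, of the replicative helicase, rose by 1.38 on the log2 scale in malignant vs. wild type cells (SE 0.23, edgeR FDR 0.00526) and Mcm3, of the same complex, by 1.26 (SE 0.24, edgeR FDR 0.00815). The proliferation marker Mki67 was called higher in premalignant (0.66) and not in malignant cells (0.14).

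Measured from this mean, with wild type set to 0, Dnmt1 was at 0.32 and 0.35 in the premalignant and at 0.070 and 0.11 in the malignant libraries on the log2 scale, and the wild type libraries lay at -0.072 and 0.072. Uhrf1 was at -0.18 and -0.15 in the premalignant and at -0.67 and -0.34 in the malignant libraries, with wild type at -0.092 and 0.092. Dnmt1 thus lay above the replication genes in all 4 Eμ-Myc libraries, though in malignant replicate 1 within the wild type range, and Uhrf1 lay below them in all 4. Tdg was at -0.34 and -0.28 in premalignant, and at 0.0085 and -0.18 in malignant libraries. The means of Dnmt3b were -0.035 in premalignant and 0.39 in malignant cells, those of Tet3 were -0.60 and -0.70, and those of Dnmt3a were -1.25 and -1.21. The mean of Tet2 was -1.54 in premalignant and -0.86 in malignant cells, and that of Tet1 was -1.95 and -5.19. These values have no test and are a description of the libraries, in which the wild type pair itself lay at 0.25 and -0.25 in the mean of the replication genes.

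**Figure D4:**
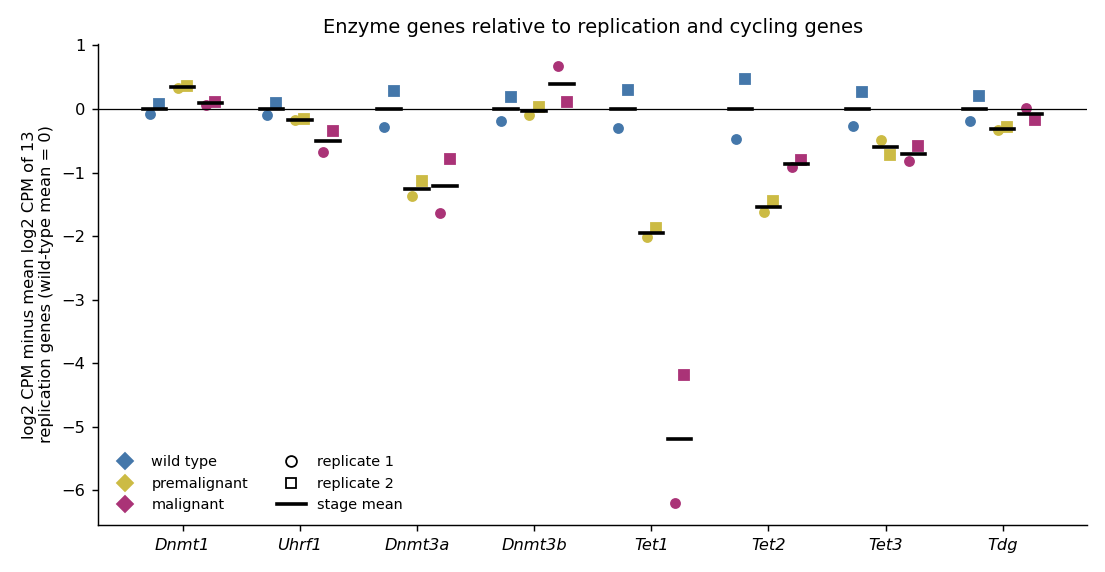
Log2 CPM of each gene minus the mean log2 CPM of 13 replication and cycling genes of the same library, with the wild type mean set to 0. Points are libraries and black bars are means of 2. The Eμ-Myc libraries lie between -0.34 and 0.68 for Dnmt1, Dnmt3b and Tdg, and the mean of Tet1 is -1.95 in premalignant and -5.19 in malignant cells.

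The partners of maintenance methylation were called in 1 direction against wild type. Of all genes tested, 19% were called higher in premalignant and 24.9% in malignant vs. wild type cells. Of 9 genes listed 8 were tested, and 6 were called higher and none lower in premalignant vs. wild type cells (median log2 fold change 0.85, all genes -0.081). Without premalignant replicate 1 or 2 only 3 were called. In malignant vs. wild type cells 3 were called higher and none lower (median 0.42, all genes -0.019) and 5 were called without wild type replicate 1, and none was called in malignant vs. premalignant cells. Cdca7, which recruits the remodeller HELLS to nucleosomes, stood at 127 and 99.8 CPM in wild type, 359 and 371 CPM in premalignant and 360 and 432 CPM in malignant libraries, and its log2 fold change in malignant vs. wild type cells was 1.81 (SE 0.18, edgeR FDR 0.00109). Hells itself was 0.96 higher (SE 0.22, edgeR FDR 0.0159). Pcna, the clamp of the fork, was at 489 and 360, 754 and 793, and 549 and 626 CPM in the 3 stages. Dppa3, an inhibitor of UHRF1 in germ cells, had at most 0.018 CPM.

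Around the de novo enzymes, 5 of 7 listed genes were tested. Against wild type, 2 were called higher and 1 lower in premalignant and 1 higher and 1 lower in malignant cells. In malignant vs. premalignant cells 1 was called lower. Of all genes, 39.3%, 49.2% and 6.18% were called in these comparisons, in this order. Trim28, a corepressor that keeps methylation at imprinted loci and endogenous retroviruses, was 0.89 higher in malignant vs. wild type cells (SE 0.15, edgeR FDR 0.00520). Kdm1b, a histone H3K4 demethylase required for methylation imprints in oocytes, fell from 165 and 161 CPM in wild type through 59.8 and 62.0 CPM in premalignant to 25.8 and 32.0 CPM in malignant libraries (malignant vs. wild type -2.50, SE 0.16, edgeR FDR 0.000540). It was called lower in each of the 3 comparisons, but not against premalignant cells without premalignant replicate 1 or 2. Dnmt3l, the cofactor without catalytic activity, had at most 0.057 CPM and was not tested.

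Among 8 genes of the families that read methylated CG pairs, 1 was called higher and 1 lower in premalignant vs. wild type cells. In malignant vs. wild type cells 2 were called higher and 3 lower. The median log2 fold changes were -0.33 and -0.26. Of all genes, 39.3% and 49.2% were called in either direction, with medians of -0.081 and -0.019. Mbd3, a NuRD subunit that in mammals does not itself select methylated CG pairs, rose by 1.09 in malignant cells (SE 0.18, edgeR FDR 0.00546), and Zbtb38 by 0.76 (SE 0.18, edgeR FDR 0.0162). Zbtb4, a methyl-CpG binding zinc finger protein, fell from 30.6 and 34.7 CPM in wild type to 8.82 and 9.79 CPM in premalignant and 10.6 and 10.1 CPM in malignant libraries (malignant vs. wild type -1.66, SE 0.19, edgeR FDR 0.00165). Mbd4, a glycosylase for deaminated methylcytosine, was at 103 and 87.2, 63.3 and 55.0, and 24.1 and 64.0 CPM and was called lower in malignant vs. wild type cells (-1.11, SE 0.42, edgeR FDR 0.0768).

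Base excision repair genes, which complete TDG's reaction, were called in both directions, as all genes were. Of 15 tested, 6 were called higher and 4 lower in premalignant, and 6 higher and 5 lower in malignant vs. wild type cells, beside 39.3% and 49.2% of all genes called in either direction. The medians were 0.071 and 0.066, against -0.081 and -0.019 for all genes. In premalignant vs. wild type cells the number called fell to 4 without premalignant replicate 1 and to 5 without premalignant replicate 2. None was called in malignant vs. premalignant cells, where 1 was without malignant replicate 1 and 6 were without malignant replicate 2. Apex1, the endonuclease that cuts at the abasic site TDG leaves, rose from 14.2 and 16.9 CPM in wild type to 66.7 and 70.1 CPM in premalignant and 83.6 and 93.7 CPM in malignant libraries (malignant vs. wild type 2.51, SE 0.16, edgeR FDR 0.000546). Ung, the uracil glycosylase, rose by 1.80 (SE 0.17, edgeR FDR 0.00105). Neil1, a glycosylase for oxidised bases, went from 174 and 219 CPM in wild type through 76.1 and 67.6 CPM to 43.4 and 20.4 CPM in malignant libraries (malignant vs. wild type -2.62, SE 0.36, edgeR FDR 0.00283), and the stress gene Gadd45g fell by 4.55 (SE 0.65, edgeR FDR 0.00321). Gadd45g differed between the wild type libraries, at 8.68 and 28.4 CPM, as the myeloid and erythroid sums did.

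For the cofactors and partners of the TET enzymes, 3 of 11 genes tested were called higher and 2 lower in premalignant, and 3 higher and 3 lower in malignant vs. wild type cells (medians 0.23 and -0.13). These shares were near the 39.3% and 49.2% of all genes called. Idh3a, of a mitochondrial enzyme that makes 2-oxoglutarate, rose by 1.45 on the log2 scale in malignant vs. wild type cells (SE 0.19, edgeR FDR 0.00228). Idh1, of a different, cytosolic enzyme that also makes 2-oxoglutarate, fell by 1.29 (SE 0.29, edgeR FDR 0.0142). Cxxc5, a CXXC-domain protein that binds unmethylated CG pairs, fell from 148 and 136 CPM to 55.0 and 56.6 CPM in premalignant and 45.8 and 46.6 CPM in malignant libraries (malignant vs. wild type -1.62, SE 0.13, edgeR FDR 0.000715). Cxxc4 had no count in any library.

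The methyl donor cycle, which supplies S-adenosylmethionine to the DNMT enzymes, had no gene called lower. Of 9 genes tested, 5 were called higher in premalignant and 6 in malignant vs. wild type cells, beside 19% and 24.9% of all genes. The medians were 0.97 and 1.01, against -0.081 and -0.019 for all genes. Mat2a, which makes S-adenosylmethionine, stood at 313 and 198 CPM in wild type, 761 and 580 CPM in premalignant and 779 and 930 CPM in malignant libraries (malignant vs. wild type 1.74, SE 0.27, edgeR FDR 0.00413). Mtap, which salvages methylthioadenosine, rose by 2.24 (SE 0.23, edgeR FDR 0.00122). Ahcy, which removes the by-product S-adenosylhomocysteine, was at 61.2 and 50.3, 200 and 203, and 195 and 170 CPM. Genes for the supply of the donor and for the removal of its by-product were thus both among those called higher.

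**Figure D5:**
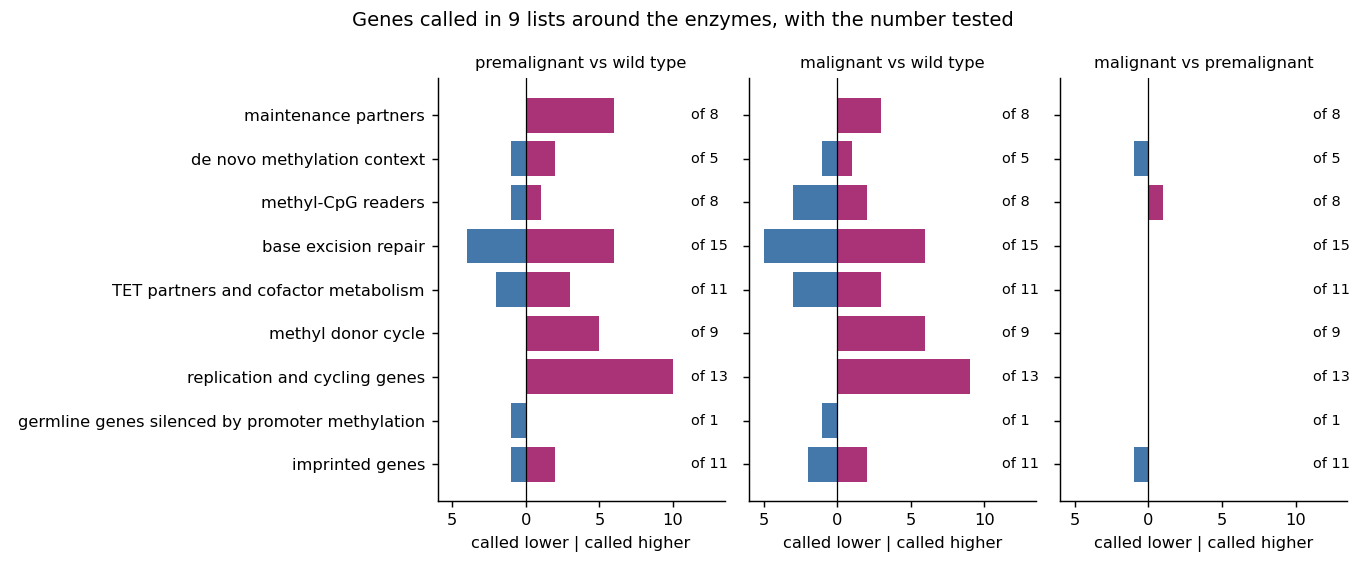
Number of genes called higher (right of 0) and lower (left of 0) in 9 lists around the enzymes, in the 3 comparisons, with the number tested beside each bar. The methyl donor cycle and the replication and cycling genes have calls only to the right, and base excision repair has 6 higher beside 4 and 5 lower against wild type.

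Genes known to be held silent by DNA methylation were also measured. Of 12 germline genes with promoters that are methylated in somatic cells, 11 were too low to test and had at most 0.209 CPM in any library. This highest value was that of Ddx4 in malignant replicate 1 (10 counts), where the floor of 3 counts corresponded to 0.0628 CPM. Brdt, the testis bromodomain gene, was the one tested, at 6.47 and 8.01 CPM in wild type, 1.72 and 2.35 CPM in premalignant and 2.28 and 1.22 CPM in malignant libraries (malignant vs. wild type -2.04, SE 0.42, edgeR FDR 0.0112). No germline gene was called higher in any comparison. Of 16 imprinted genes with an identifier 11 were tested. Against wild type, 2 were called higher and 1 lower in premalignant, and 2 higher and 2 lower in malignant cells. Of all genes, 39.3% and 49.2% were called in these comparisons, which are larger shares than those of the list. The premalignant count of 3 was 1 without wild type replicate 1, 0 without wild type replicate 2 or either premalignant library, and 6 without either malignant library. Cdkn1c, an inhibitor of cyclin-dependent kinases, was at 1.89 and 1.22, 2.17 and 4.37, and 11.7 and 4.59 CPM and was called higher in malignant vs. wild type cells (2.39, SE 0.60, edgeR FDR 0.0215), as was the antisense transcript Airn (2.26, SE 0.36, edgeR FDR 0.00471), whose reads cannot be told from those of Igf2r without strand. Grb10, a growth-inhibiting adaptor, stood at 1.63 and 1.81 CPM in wild type, 0.400 and 0.633 CPM in premalignant, and 0 and 0.072 CPM in malignant libraries, and was called lower in each comparison, but against premalignant cells not without any one of the wild type or premalignant libraries. Peg10 was at 1.40 and 2.21, 0.781 and 0.723, and 0.021 and 0.251 CPM and was called lower in malignant vs. wild type cells.

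For each enzyme gene the 3 genes with the most similar pattern over the 6 libraries were taken from 8872 genes with a mean of at least 10 CPM, by Pearson's r of log2 CPM. Over 6 libraries from 3 stages such values of r are a description, without a test. Tet1 was closest to Myst3, Egfl6 and Sec24d (r 0.997, 0.997 and 0.996). Sec24d, at 20.9 and 17.8 CPM in wild type, 9.85 and 9.82 CPM in premalignant and 0.900 and 3.33 CPM in malignant libraries, was, like Tet1, lowest in malignant replicate 1, while Myst3 moved between 257 and 173 CPM. Dnmt1 was closest to Trim37, Cetn3 and Ubqln1 (r 0.999, 0.998 and 0.998), and Uhrf1 to Kntc1, Mettl4 and Eme1 (r 0.996, 0.995 and 0.993). Dnmt3b was closest to Polr3g, Nif3l1 and Ints10 (r 0.999, 0.998 and 0.998), and Tdg to Mcph1, Denr and Ttc27 (r 0.999, 0.998 and 0.998). Dnmt3a was closest to Exoc4, Utrn and Zfp407 (r 0.982, 0.979 and 0.977), among which Utrn also differed between the malignant libraries, at 22.5 and 88.9 CPM. Tet2 was closest to Ceacam1, Zdhhc17 and Polr3gl (r 0.989, 0.984 and 0.980), and Tet3 to Deaf1, Zbtb40 and Serf2 (r 0.993, 0.977 and 0.955).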

How the data were processed

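RNA-seq of polyadenylated RNA was analysed from 6 libraries, 2 for each stage, with stage and replicate taken from the labels. The authors aligned 50-base single-end reads with TopHat (the processing notes name mm9) and used HTSeq to make raw counts for Ensembl genes, which are the values they deposited, and the submitters' processing notes also name CASAVA 1.8.2 and Bowtie. The HTSeq options and the gene annotation are not given in the sources used here, and the library kit does not mark strand. The authors' tables of their own comparisons with DEseq (means, fold changes and p-values) were not used.

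The counts were fitted with edgeR 4.0.16 in R 4.3.3 (TMM, default filter on low counts, quasi-likelihood test), all 6 libraries in 1 fit, with Benjamini-Hochberg adjustment over 16683 genes and the thresholds of the study's methods. Each SE is the absolute log2 fold change divided by the square root of the quasi-likelihood F statistic, so it comes from the same test as the p-value. The scripts were tested on simulated data. TMM takes most genes as unchanged, so a shift in RNA content per cell cannot be read from these values. RPKM was computed from total counts and the union of exons of GENCODE vM1, which gave a symbol to 37205 identifiers and none to 786. The alternatives were DESeq2 1.42.0, 2 other normalizations, 2 other filters, the replicate block, fits limited to the compared stages, 3 other thresholds, TMM-scaled RPKM, and leaving out each library. RPKM per longest coding transcript was added after seeing the data.

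The members and lists were chosen with earlier results of these data known. Named genes are the 8 members, Myc, markers, in each list up to 2 genes called higher and 2 called lower in malignant vs. wild type cells with the largest log2 fold change (and 1 CPM or more on average in the higher stage), and the 3 nearest patterns of each member; some genes that this rule names are not reported here. Mki67, Pcna, Ahcy, Dppa3, Dnmt3l and Cxxc4 were named after their values were seen. Start regions are from RefSeq (GRCm38.p6), which had windows for all 8 members. Nothing in the labels ties same-numbered libraries to an animal or litter. The p-values rest on the spread between the 2 libraries of a stage, in 1 estimate shared by all 3 stages. A wide pair in 1 stage therefore also enters the comparison of the other stages.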

Additional observations from a re-analysis of the deposited data

How the results depend on the processing

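The number of the 8 genes called stayed within 1.5 times its value with DESeq2, upper-quartile or median-ratio normalization, either filter on low counts, the replicate block and no minimum fold change. At a fold limit of 1 on the log2 scale it was 1 in premalignant vs. wild type cells (Dnmt1) and 2 in malignant vs. wild type cells (Dnmt3b and Tet1). In malignant vs. premalignant cells it was 0 at an FDR of 0.05 and 0 with only these stages fitted. Without each library in turn, it lay between 1 and 6 in premalignant vs. wild type, between 4 and 5 in malignant vs. wild type and between 0 and 5 in malignant vs. premalignant cells. A stage left with 1 library is assumed to vary like the others, and the cause of the lost calls was not tested.

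The sign of a member's log2 fold change turned in 10 cases, in none of which it was called. In malignant vs. wild type cells these were Tet3 (-0.11 with upper-quartile normalization, -0.029 with at least 10 counts in every library, and between -0.14 and 0.27 without single libraries), Tet2 (between -0.33 and 0.11 without single libraries), Dnmt3a (between -0.97 and 0.061) and Uhrf1 (between -0.0080 and 0.50). In malignant vs. premalignant cells they were Tdg (-0.025 with upper-quartile normalization) and Dnmt3a (between -0.69 and 0.38). Of the other values, 25 lost and 10 gained a call and 339 stayed on their side of the threshold. Upper-quartile normalization moved the median of all genes in malignant vs. wild type cells by -0.17, and the calls in malignant vs. premalignant cells from 623 higher and 408 lower to 487 and 492.

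Of the mean RPKM values, 19 moved by more than 1 SD and 29 did not. With TMM-scaled library sizes 8 moved, such as Dnmt3a in wild type (7.42) and Dnmt1 in premalignant cells (195), and order and ratios within a library stay the same by construction. The other 11 moved with the longest coding transcript as the length. Of the list counts, 65 moved by more than 1.5 times and 367 did not.

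Same-numbered libraries deviated together across genes (correlations of 0.51, 0.19 and 0.26 for the 3 pairs of stages), but share only a number. With the replicate block 5, 4 and 1 of the 8 genes were called, as without it. With 24 and 65 counts of Tet1 in the malignant libraries, depth limits its fold change more than that of any other member, and 2 libraries a stage limit all of them.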

Other observations

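Annotated copies of the enzyme genes had few counts. Gm5648, a copy of Uhrf1, had between 89 and 241 counts per library, which came to 0.570% of the counts of Uhrf1. The Tdg copies Gm9855 and Gm5806 had between 43 and 102 and between 2 and 14 counts, and Gm14490, a copy of Dnmt3b, had at most 2. Other matches of Tdg stretches lay outside these copies, at 3079 positions in no annotated gene and 1352 in Lipo1. How reads that match more than 1 place were handled is not given. Few counts at a copy therefore do not show how far copies affect the counts of the enzyme genes. Glt8d2, which overlaps Tdg by 367 exonic bases on the other strand, had between 5 and 27 counts, and Gm10485, which overlaps Dnmt3a by 133 bases, had at most 6.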
